A study of Saccharomyces cerevisiae with 12 samples.

Results

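The genes described here encode the proteins of the cytosolic ribosome of budding yeast (Saccharomyces cerevisiae). They were chosen by symbol: every gene named RPL or RPS with a number and an optional A or B, and the stalk genes RPP0, RPP1A, RPP1B, RPP2A and RPP2B. This gave 127 genes of the 5449 genes measured on the arrays. Of these, 70 are RPL genes of the large subunit, 52 are RPS genes of the small subunit and 5 are stalk genes, which also belong to the large subunit. Both copies of a duplicated gene, A and B, were measured for 50 proteins. A further 10 genes whose symbols match were not analysed here.

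A ribosome has a small subunit, which holds the mRNA and reads its codons, and a large subunit, which joins the amino acids. Its ribosomal proteins bind to ribosomal RNA in fixed proportions, and yeast keeps duplicate genes for most of them, a remnant of an ancient genome duplication. Growing yeast spends a large part of its transcription by RNA polymerase II on these genes. The activators Rap1, Fhl1 and Ifh1 drive most of them under control of the TORC1 and protein kinase A pathways, and their mRNAs are known to decline together in many stresses while stress defence genes are induced.

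All samples came from BY4741, a common haploid laboratory strain (mating type a, with LEU2, URA3 and MET17 deleted). Cells were wild type or slt2 deficient, that is, without Slt2, the MAP kinase that signals damage to the cell wall. Cells in exponential growth in YEPD, a rich medium, at 30 °C were sampled untreated at time 0 or after 2 h in 100 µM sodium arsenate, which is toxic and resembles phosphate. Each of the 4 groups had 3 arrays: untreated wild type, arsenate-treated wild type, untreated slt2 and arsenate-treated slt2. Arsenate and 2 h of further culture cannot be told apart, as no untreated culture of the same length was analysed here. The replicates are called independent, but nothing says that they were separate cultures, so the p-values cover the spread between these arrays alone, which may be technical.

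Values are log2 signals per probe set, so a difference of 1 is a doubling. Signals of different genes come from different probes, so their heights do not give relative mRNA amounts between genes. RMA is meant to make the distributions of arrays alike, so a signal is relative to the other mRNAs of the same array. In the deposited values the array medians still ran from 9.98 to 10.20. Fewer ribosomal protein mRNAs per cell and more of the other mRNAs cannot be told apart. SLT2 checked the genotype labels, with signals of 10.66 to 11.01 on the 6 wild-type arrays and 5.22 to 5.81 on the 6 slt2 arrays. The deleted LEU2, URA3 and MET17 lay between 3.74 and 5.47. Wild-type arsenate array 1 stood apart from every other array. Its correlation across all genes with the other 11 arrays ran from 0.621 to 0.779, while arrays of the same slt2 group correlated at 0.996 or higher. Wild-type untreated array 2 and wild-type arsenate array 2 also differed from their replicates, though less. For comparisons with treated wild type, the median of the ribosomal protein genes is also given without wild-type arsenate array 1 and without all 3 arrays. Fold changes of single genes, pairs and other gene lists that rest on these 3 arrays are given only with them. The same holds for counts of genes whose groups do not overlap.

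Ribosomal protein mRNAs were among the brightest signals of every array but 1. On 11 arrays the median signal of the 127 genes lay between 13.87 and 14.08, on a scale whose highest gene on any array reached 14.91. Between 106 and 117 of them stood among the brightest 5% of all genes on these 11 arrays. On wild-type arsenate array 1 the median was 11.80 and 5 of the 127 genes stood among the brightest 5%.

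**Figure D1:**
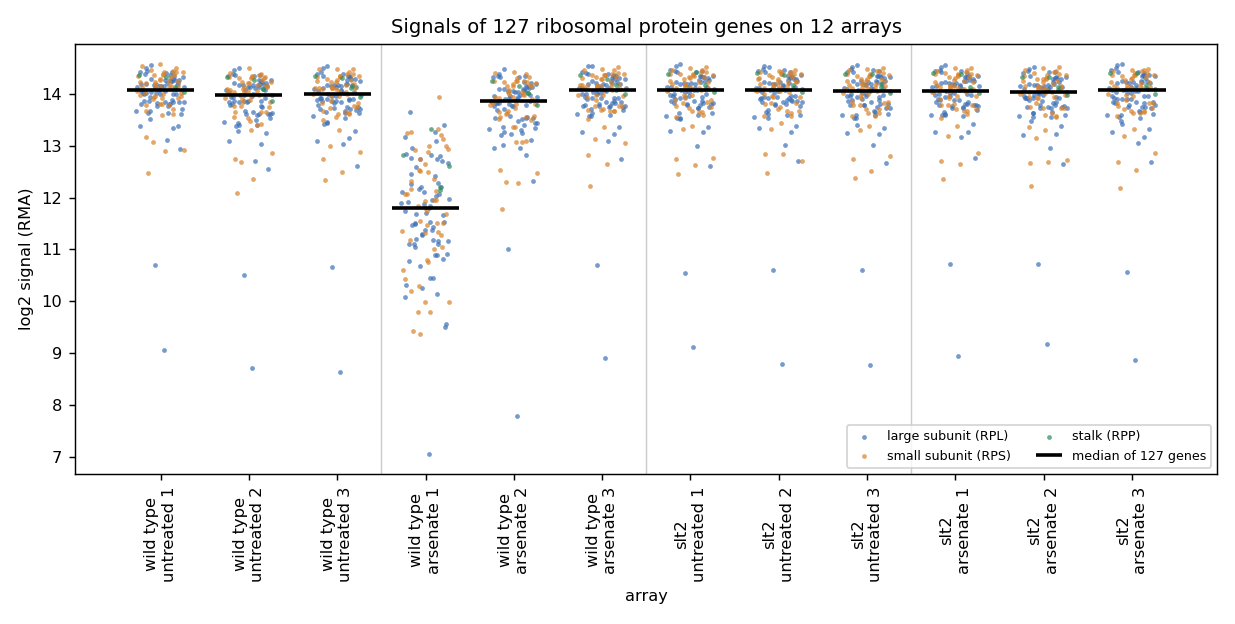
Log2 signals (vertical axis) of the 127 ribosomal protein genes on each of the 12 arrays, with 1 point per gene and the median of each array marked. Wild-type arsenate array 1 has a median of 11.80, and the medians of the rest lie from 13.87 to 14.08.

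Apart from that array the signals of the set hardly moved. Over the other 11 arrays the range of a ribosomal protein gene, highest minus lowest log2 signal, had a median of 0.24, against 0.67 over all genes. Most genes of the whole table are less bright than this set, and ranges were not compared at like brightness. The range was under 0.5 for 111 of the 127 genes. The widest ranges were 1.40 for RPL41A, 1.02 for RPS28B, 0.73 for RPS1A, 0.68 for RPS9A and 0.63 for RPS10B. The 3 arrays of untreated slt2 had a median standard deviation of 0.02 per ribosomal protein gene, and those of arsenate-treated slt2 of 0.03. The matching values were 0.07 in untreated wild type and 1.20 in arsenate-treated wild type.

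In wild type the question was how the mRNAs of the translation machinery stood after 2 h of arsenate, and the 3 arrays differed. Relative to the mean of the untreated wild-type arrays, the median ribosomal protein gene was 2.15 log2 units lower on array 1, a change of -2.15. On array 2 the median change was -0.14, and on array 3 it was 0.03. The number of the 127 genes below their untreated mean was 126 on array 1, 125 on array 2 and 26 on array 3. It was 120 on untreated array 2, itself part of that mean, so a small offset of an array can give such a count. Over all genes the median changes on the 3 arsenate arrays were 0.18, -0.06 and 0.04.

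**Figure D2:**
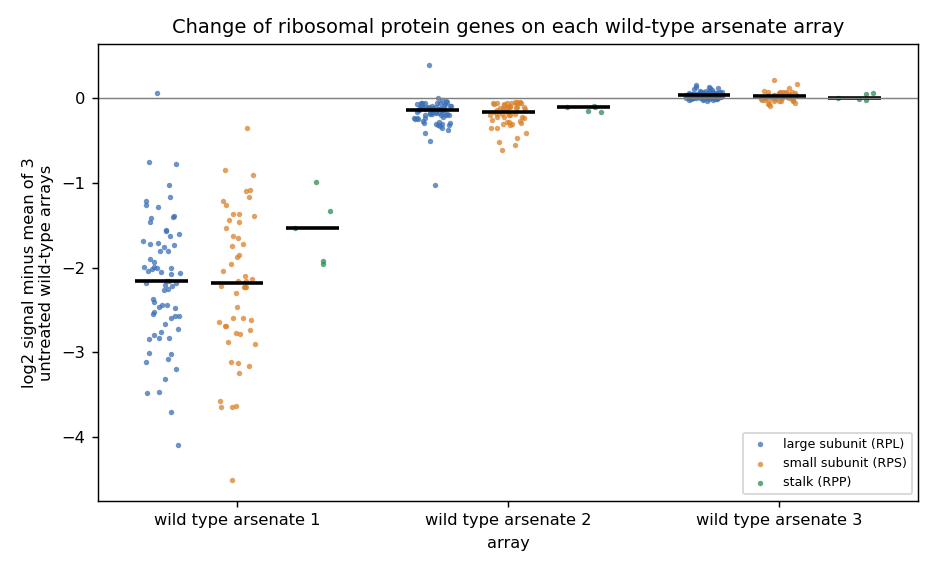
Change of each ribosomal protein gene on the 3 arsenate-treated wild-type arrays, in log2 units against the mean of the 3 untreated wild-type arrays, with RPL, RPS and stalk genes apart and a line at the median of each. Array 1 spans -4.51 to 0.06, array 2 spans -1.02 to 0.40 and array 3 spans -0.08 to 0.21.

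The average of the 3 arrays gave a median log2 fold change of -0.75 over the 127 genes, against 0.06 over all genes. None of the 127 passed the test in limma, the linear model over all genes, at a Benjamini-Hochberg adjusted p of 0.05. The share of all genes called was 0.0184% higher and 0% lower. At an unadjusted p under 0.05 there was 1 ribosomal protein gene, RPL41A, and 696 genes in all. The smallest adjusted p in limma among the 127 was 0.299, and standard errors ran from 0.12 to 0.93. Without wild-type arsenate array 1 the median fold change was -0.06, and without all 3 arrays that stood apart it was 0.00. The latter value rests on arsenate array 3 alone, the only treated wild-type array then left. When array 3 was left out instead, 10 of the 127 passed, all lower, or 7.87% beside 14.6% of all genes lower. These 10 were RPL4B, RPL13A, RPL19A, RPL41A, RPS1A, RPS7B, RPS9A, RPS14B, RPS22B and RPS28B, with log2 fold changes from -1.99 for RPL13A to -0.98 for RPS22B.

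All 3 arsenate arrays lay below all 3 untreated arrays for 5 of the 127 genes, whose groups thus did not overlap. They were RPL15A, RPL37A, RPP1B, RPS11A and RPS21A, and they make 3.94% of the set, beside 2.92% of all genes lower in this way. No ribosomal protein gene lay wholly above its untreated arrays, as 5.65% of all genes did. The count depended on the scaling between arrays, with 21 genes lower (16.5% of the set beside 5.40% of all genes) after each array was centred on its median. After quantile normalization there were 10 (7.87% beside 5.30%).

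The general stress list, genes induced by many stresses, differed between the same arrays. The median change of its 29 measured genes was 3.46 on wild-type arsenate array 1, 2.10 on array 2 and -0.06 on array 3. On untreated wild-type array 2 it was 0.85, where the ribosomal protein median was -0.05. Array 2 of the arsenate group thus held stress genes 2.10 above and ribosomal protein genes 0.14 below the untreated mean. The 3' minus 5' signal of 7 control transcripts, a measure of RNA integrity, was 0.92 on array 1, 1.79 on array 2 and 1.05 on array 3, and 0.93 to 1.59 on the other 9 arrays. The part of RNA quality in the array differences was not tested.

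On wild-type arsenate array 1 the low signals covered nearly the whole ribosome. A change below -1 was found for 120 of the 127 genes, or 94.5%, and for 18.9% of all genes. Below -2 lay 74 of them, or 58.3%, and 8.50% of all genes. Large-subunit genes, stalk included, had a median change of -2.06 and small-subunit genes of -2.19. Large minus small was thus 0.12 on this array, and 0.02 in the average over the 3 arrays. Among genes of similar brightness, with an untreated wild-type mean of at least 14, the 67 ribosomal protein genes had a median of -1.90 on this array and the 31 other genes of -0.14. This limit was chosen after the values were seen. Lowering it by 0.5 gave -2.11 for 112 ribosomal protein genes and -0.39 for 110 others, and by 1 gave -2.11 for 118 and -0.55 for 259. These are values of 1 array with no replicate.

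Among large-subunit genes, RPL3 encodes a core protein that reaches toward the peptidyl transferase centre. Its signals were 14.26, 14.19 and 14.34 in untreated wild type and 13.10, 14.06 and 14.34 on the arsenate arrays 1, 2 and 3. RPL10 encodes a protein that joins the large subunit in the last steps of its maturation. Its signals were 14.43, 14.35 and 14.38 untreated and 13.17, 14.33 and 14.42 with arsenate. In both genes array 1 was far below the rest, array 2 just below the untreated arrays and array 3 within their range.

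RPL6B (YLR448W) stood at the low end of the large-subunit genes. Its signals were 13.62, 13.61 and 13.76 untreated and 9.56, 13.34 and 13.74 with arsenate. The log2 fold change was -1.45 (SE 0.85, adjusted p = 0.301 in limma, n = 3 arrays per group). Arrays 1 and 2 lay below the untreated arrays and array 3 lay between them. RPL17B, also of the large subunit, had 13.88, 13.77 and 13.88 untreated and 10.14, 13.54 and 13.87 with arsenate, a fold change of -1.33 (SE 0.76, adjusted p = 0.299).

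RPL41A (YDL184C), which encodes the smallest protein of the ribosome, was low on both arrays 1 and 2. Its only probe set is marked as shared between transcripts and may also read the copy RPL41B, which was not analysed here. The signals of this probe set were 9.06, 8.72 and 8.64 untreated and 7.05, 7.78 and 8.90 with arsenate. The log2 fold change was -0.90 (SE 0.37, unadjusted p = 0.0367, adjusted p = 0.299 in limma, n = 3 arrays per group). Array 3 lay inside the untreated range, so the groups overlapped. On array 2 its change of -1.02 was the lowest of the 127 genes, followed by RPS28B at -0.61, RPS1A at -0.55, and RPS9A and RPL13A at -0.51.

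RPL15B (YMR121C), a copy of the gene for the large-subunit protein L15, was the exception on array 1. It was the 1 gene of the 127 that was not below its untreated mean there, with a change of 0.06. Its signals were 10.69, 10.51 and 10.65 untreated and 10.68, 11.02 and 10.70 with arsenate. Array 2, the highest, lay above all untreated arrays and array 1 within them. The log2 fold change of 0.18 (SE 0.12, adjusted p = 0.337 in limma, n = 3 arrays per group) did not pass. The other genes above -1 on array 1 were RPS23A at -0.35, RPL4A at -0.75, RPL40A at -0.78, RPS20 at -0.85, RPS30A at -0.90 and RPP0 at -0.98.

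Among small-subunit genes, RPS26B (YER131W) had the lowest value. Rps26 sits where the mRNA leaves the ribosome. The signals were 13.95, 13.85 and 13.86 untreated and 9.37, 13.66 and 13.89 with arsenate, with a change of -4.51 on array 1. That is a 22.8-fold lower signal on this 1 array. The average log2 fold change was -1.58 (SE 0.93, adjusted p = 0.301 in limma, n = 3 arrays per group), and array 3 lay within the untreated range. RPS23A, whose protein lines the decoding centre, held its signal best in this subunit on the probe set used here. Its signals were 14.36, 14.26 and 14.26 untreated and 13.95, 14.23 and 14.33 with arsenate. The other probe set of RPS23A changed by -0.83 on array 1, against -0.35 on the one used.

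RPS3 encodes a protein at the mRNA entry channel, and its signals were 14.37, 14.30 and 14.35 untreated against 12.50, 14.25 and 14.36 with arsenate. RPS6B encodes a protein that is phosphorylated in response to TORC1, and its signals were 14.42, 14.24 and 14.35 untreated against 12.94, 14.22 and 14.38 with arsenate. For both, array 1 was far below the rest, array 2 just below the untreated arrays and array 3 among them. The fold changes of -0.64 for RPS3 and -0.49 for RPS6B did not pass. The only probe set of RPS6B is marked as shared between transcripts and may also read the copy RPS6A, which was not analysed here.

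The stalk of the large subunit recruits the translation factors that hydrolyse GTP, and its base is P0. RPP0 had signals of 14.33, 14.27 and 14.31 untreated and 13.32, 14.15 and 14.29 with arsenate. The P1 and P2 genes RPP1A, RPP1B, RPP2A and RPP2B had changes of -1.33, -1.95, -1.92 and -1.53 on array 1. The median of the 5 stalk genes was -1.53 on array 1, -0.10 on array 2 and 0.01 on array 3. The averaged log2 fold changes ran from -0.69 for RPP1B to -0.38 for RPP0, and none passed.

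Some genes are read by probe sets whose identifier marks targets shared between transcripts, and copies with near-identical coding sequence may share signal on such probes. The 24 ribosomal protein genes on shared-target probe sets had a median change of -1.62 on array 1, and the 103 on single-target probe sets of -2.22. For 20 genes both kinds were present. The single-target value was the lower in 14 of these 20, with medians of -2.32 for single-target and -1.73 for shared-target probe sets. The largest gap was at RPS17B, with -3.57 on its single-target and -1.37 on its shared-target probe set. RPS24A went the other way, with -1.77 and -2.64. The size of a change on array 1 thus depended on the probe set, while the arsenate effects in slt2 from the 2 kinds differed by at most 0.10.

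**Figure D3:**
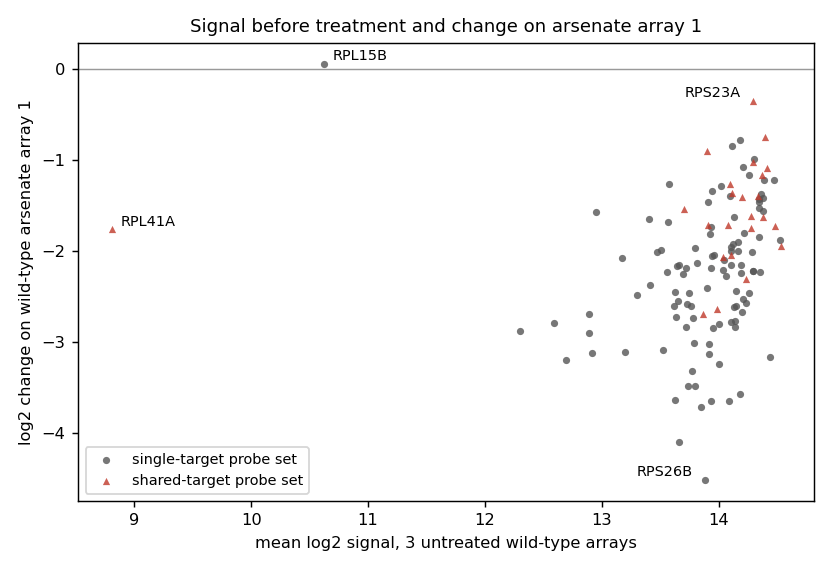
Change on wild-type arsenate array 1 (vertical axis, log2 units) against the mean untreated wild-type signal (horizontal axis, log2) for the 127 ribosomal protein genes, with shared-target probe sets marked. Across genes Pearson's r is 0.09 and Spearman's rho 0.42, and without RPL15B and RPL41A, the genes of lowest signal, r is 0.39 and rho 0.47 (n = 125).

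Copies of the same gene were compared through the change of A minus the change of B. On array 1 copy A was the less reduced in 26 pairs and copy B in 24, with a median difference of 0.04. The copies differed by over 1 log2 unit in 22 of the 50 pairs and lay within 0.5 in 18. Neither copy was the higher throughout, and many single pairs were far apart on this array. Of the 35 pairs with single-target probe sets for both copies, A was the less reduced in 17 and B in 18, and 14 differed by over 1.

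**Figure D4:**
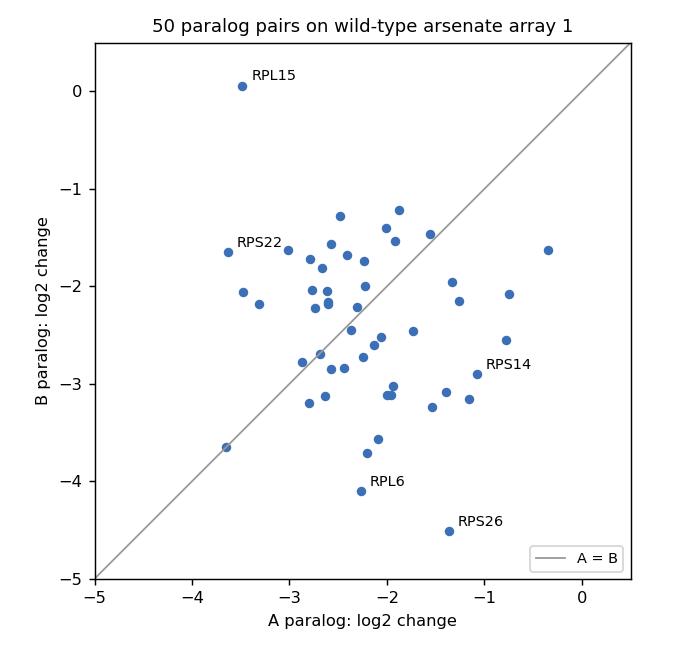
Change of copy B (vertical axis) against change of copy A (horizontal axis) on wild-type arsenate array 1, in log2 units, for the 50 duplicated ribosomal protein genes, with a diagonal of equal change. Copy A is the less reduced in 26 pairs and copy B in 24, and RPL15 (-3.54) and RPS26 (3.15) lie farthest from the diagonal.

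RPS26 and RPL15 were the pairs farthest apart. RPS26A had 14.15, 14.09 and 14.11 untreated and 12.75, 14.04 and 14.13 with arsenate, so A minus B changed by 3.15 on array 1. RPL15A had 13.80, 13.79 and 13.79 untreated and 10.31, 13.54 and 13.77 with arsenate, so A minus B changed by -3.54 there. In RPS26 copy A kept more of its signal, and in RPL15 copy B did. On array 2 RPL15A again lay below and RPL15B above the untreated arrays, and on array 3 RPL15A was just below them by 0.02 on average.

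Averaged over the 3 arrays, A minus B of the arsenate effect was -1.43 for RPL15 (95% interval -2.96 to 0.09, adjusted p = 0.3 in limma) and 1.10 for RPS26 (adjusted p = 0.303). None of the 50 pairs passed, beside 0.0184% of all genes called higher and 0% lower. Without arsenate array 3, 8 of the 50 pairs passed, or 16%, beside 29.5% of all genes called in either direction. Other wide gaps on array 1 were 1.83 for RPL6, 1.82 for RPS14, -1.39 for RPL14, -1.42 for RPL13 and -1.98 for RPS22. The gap for RPL14 depends on the probe set. RPL14A changed by -3.01, and RPL14B by -1.63 on the shared-target probe set used and by -2.25 on its single-target one. Over the other 11 arrays A minus B of a pair ranged over a median of 0.22, and most widely for RPS28 at 0.82, RPL15 at 0.79, RPS14 at 0.54, RPS19 at 0.51 and RPS9 at 0.48.

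In slt2 cells ribosomal protein signals were nearly the same after 2 h of arsenate as before. Most of these signals lie near the top of the scale, and whether changes of mRNA are compressed there was not tested. The median log2 fold change was -0.02, against 0.03 over all genes, and the 127 values lay between -0.18 and 0.10. For 124 of them the change was within 0.1 either way, and 91 lay below 0. None passed in limma over 12 arrays, beside 0.0367% of all genes called higher and 0% lower, and none had an unadjusted p under 0.05, as 71 genes in all did.

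The 12-array model takes 1 spread per gene for all groups, which the wild-type arrays widen, so the 6 slt2 arrays were also fitted alone. Standard errors of the 127 genes then had a median of 0.04. None of the 127 passed, beside 1.91% of all genes called higher and 0.551% lower. At an unadjusted p under 0.05 there were 2 of the 127 genes and 909 in all. The 95% interval lay within 0.25 log2 units either side of 0 for 123 genes, and within 0.5 for all 127. Changes beyond these bounds are thus outside the intervals for the spread between these 6 arrays. The 4 wider intervals were those of RPL39 (-0.10 to 0.25), RPL41A (-0.18 to 0.39), RPS19A (-0.26 to 0.19) and RPS9A (-0.33 to -0.04).

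**Figure D5:**
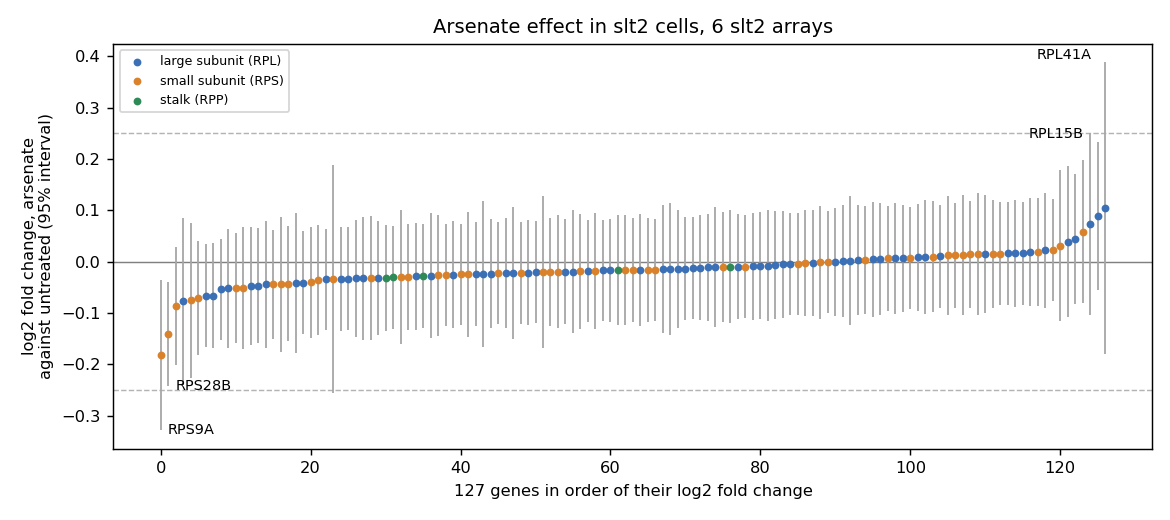
Arsenate effect in slt2 (log2 fold change, with 95% intervals from the fit of the 6 slt2 arrays alone) of each of the 127 ribosomal protein genes, in order of the effect. The effects run from -0.18 (RPS9A) to 0.10 (RPL41A), and 123 of the intervals lie within 0.25 log2 units of 0.

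RPS9A and RPS28B had the lowest values. RPS9A encodes a small-subunit protein that binds early in ribosome assembly. Its signals were 12.46, 12.47 and 12.38 in untreated and 12.36, 12.22 and 12.19 in arsenate-treated slt2. RPS28B encodes a small-subunit protein that in yeast promotes decay of its own mRNA through Edc3. Its signals were 13.33, 13.33 and 13.30 untreated against 13.19, 13.15 and 13.18 with arsenate. In both genes all 3 treated arrays lay below all 3 untreated arrays.

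The log2 fold changes were -0.18 for RPS9A (SE 0.06, unadjusted p = 0.0221, adjusted p = 0.202) and -0.14 for RPS28B (SE 0.04, unadjusted p = 0.0137, adjusted p = 0.16) in limma on the slt2 arrays alone. RPS10B followed at -0.09, and the highest values were 0.07 for RPL39, 0.09 for RPL15B and 0.10 for RPL41A. The fixed examples RPL3, RPL10, RPS3 and RPS6B and the 5 stalk genes lay between -0.04 and 0.00. The other copies had -0.02 for RPS9B and -0.03 for RPS28A. A minus B was -0.17 for RPS9 (95% interval -0.31 to -0.03, adjusted p = 0.219 in the same fit), 0.11 for RPS28 (adjusted p = 0.379) and -0.10 for RPL27 (adjusted p = 0.573).

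In 16 of the 127 genes the groups were wholly apart, all with arsenate below untreated, or 12.6% of the set beside 7.27% of all genes. No gene of the set lay wholly higher, beside 15.3% of all genes. The order of these lower shares turned with the scaling. After centring there were 12 such lower genes, 9.45% of the set beside 15.1% of all genes. After quantile normalization there were 10, 7.87% beside 17.2%, and 1 gene wholly higher beside 11.7%. The shifts behind these counts were small, the largest being that of RPS9A at -0.18. The large and small subunits had medians of -0.01 and -0.02.

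Without arsenate the genotypes had nearly the same ribosomal protein signals. The median log2 difference, slt2 minus wild type, was 0.04, against -0.03 over all genes. It lay between -0.13 and 0.40, above 0 for 107 of the 127 genes and within 0.1 for 115. None passed in limma, beside 0% of all genes called higher and 0.0184% lower, and none had an unadjusted p under 0.05, as 205 genes in all did. The small offset moved with the scaling, to 0.10 with centred arrays and 0.01 after quantile normalization.

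RPS28B (YLR264W) had the largest genotype difference, 0.40 (SE 0.65, 95% interval -1.04 to 1.84, adjusted p = 1 in limma, n = 3 arrays per group). Its untreated signals were 13.07, 12.68 and 13.00 in wild type against 13.33, 13.33 and 13.30 in slt2. All slt2 arrays lay above all wild-type arrays, and the standard error reflects the spread of the arsenate-treated wild-type arrays that share the model. RPS28A, the other copy, differed by 0.01, with 13.90, 13.76 and 13.73 in wild type and 13.82, 13.82 and 13.79 in slt2. A minus B for RPS28 was -0.39 (95% interval -1.01 to 0.23, adjusted p = 1 in limma).

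RPS14B encodes a copy of a small-subunit protein that in yeast represses splicing of the RPS14B pre-mRNA. It had the lowest genotype difference, -0.13, with 12.91, 12.86 and 12.88 in wild type and 12.76, 12.71 and 12.80 in slt2. It was the 1 ribosomal protein gene whose slt2 arrays all lay below wild type, beside 17.9% of all genes. After centring this count was 1, beside 13.1%, and after quantile normalization 9, or 7.09% of the set beside 16.2%. Wholly above wild type lay 26 genes, 20.5% of the set beside 8.94% of all genes. After centring there were 63 (49.6% beside 19.3%), and after quantile normalization 6 (4.72% beside 15.5%), so the set stood above the background in the deposited and centred values and below it in the quantile-normalised ones. After RPS28B the highest differences were 0.17 for RPS0B and 0.15 for RPL19A, and next to RPS14B at the low end stood RPS10B and RPS17B at -0.11.

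With arsenate, slt2 minus wild type had a median of 0.79 over the 127 genes, against -0.05 over all genes, and was above 0 for 126 of them. None passed in limma, beside 0.0184% of all genes called higher and 0.0184% lower. RPL41A was the 1 gene with an unadjusted p under 0.05, with a difference of 1.09 (SE 0.37, unadjusted p = 0.0154, adjusted p = 0.142), and 1796 genes in all were under 0.05. Without wild-type arsenate array 1 the median was 0.07. Without the 3 arrays that stood apart, which leaves arsenate array 3 alone in treated wild type, it was -0.01. When wild-type arsenate array 3 was left out, 38 genes passed, all higher in slt2, or 29.9% of the set beside 20.6% of all genes. They included RPL6B at 2.34 (adjusted p = 0.0448), RPS28B at 2.12 (adjusted p = 0.0173) and RPP0 at 0.65 (adjusted p = 0.0323). The wild-type arsenate arrays here are those of the arsenate effect in wild type, so the comparisons share them.

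The largest differences with arsenate were 1.60 for RPS26B (adjusted p = 0.225 in limma), 1.58 for RPL6B (adjusted p = 0.201) and 1.43 for RPS28B (adjusted p = 0.153). For RPS28B the treated slt2 arrays gave 13.19, 13.15 and 13.18, against 9.80, 12.31 and 13.13 in treated wild type. The 3 slt2 arrays lay above the wild-type arrays, array 3 by the least. The lowest differences were -0.13 for RPL15B, 0.13 for RPS23A and 0.29 for RPL40A. Groups did not overlap for 25 genes, all higher in slt2, or 19.7% of the set beside 16.5% of all genes. After centring there were 81 (63.8% beside 22.7%). After quantile normalization there were 16 (12.6% beside 18.6%), so here too the share was under the background with that scaling. Among pairs, A minus B was 1.46 for RPL15 (adjusted p = 0.162 in limma), -1.14 for RPS26 (adjusted p = 0.221) and 0.79 for RPS22 (adjusted p = 0.215), and none of the 50 passed. Without wild-type arsenate array 3, 12 of the 50 pairs passed, or 24%, beside 42.7% of all genes called in either direction.

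Whether arsenate acted differently in the genotypes was tested by subtracting the wild-type arsenate effect from that in slt2. Its median over the 127 genes was 0.74, against -0.02 over all genes, with 126 above 0. None passed in limma, beside 0% of all genes in either direction, and the smallest adjusted p was 0.711. No ribosomal protein gene had an unadjusted p under 0.05, as 28 genes in all did. The highest values were 1.55 for RPS26B, 1.45 for RPL6B and 1.30 for RPS17B, and the lowest were -0.09 for RPL15B, 0.11 for RPS23A and 0.22 for RPL40A. Without wild-type arsenate array 1 the median was 0.05. Without the 3 arrays that stood apart, which leaves arsenate array 3 alone in treated wild type, it was -0.02. The pairs RPL15, RPS26 and RPS14 had A minus B of 1.34, -1.10 and -0.76, each with an adjusted p of 0.708.

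The transcription factors and kinases that control ribosomal protein genes were read beside them. Of 26 listed regulators 25 were measured, and none passed in any of the 5 comparisons or in the slt2 arrays alone. Their median arsenate effect in wild type was 0.09 with 15 above 0, and in slt2 it was 0.03. IFH1, the coactivator, had signals of 10.25, 10.03 and 10.21 in untreated wild type and 8.36, 10.10 and 10.27 with arsenate. CRF1, a corepressor that competes with Ifh1 for Fhl1, had 5.31, 4.72 and 5.21 untreated and 8.65, 5.22 and 5.28 with arsenate. On array 1 IFH1 was thus low and CRF1 high, and on arrays 2 and 3 both lay at or near their untreated ranges.

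RAP1, which binds most of these promoters, had an arsenate effect of -0.52 in wild type and -0.09 in slt2. The other regulators described had -0.19 and -0.03 for FHL1, 0.03 and -0.02 for SFP1, and -0.01 and -0.03 for HMO1, in wild type and slt2. The values for IFH1 were -0.59 and 0.10, and for CRF1 1.30 and 0.16. No adjusted p of these 6 genes was under 0.05 in limma.

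Escort proteins bind new ribosomal proteins and carry them to the assembling ribosome. None of the 17 measured passed in any comparison. Their median arsenate effect was -0.93 in wild type, with 2 above 0, and 0.00 in slt2. RRB1, the escort of Rpl3, had signals of 13.02, 12.43 and 13.04 untreated and 8.57, 12.15 and 12.99 with arsenate in wild type. TSR2, the escort of Rps26, had 11.75, 10.96 and 11.78 untreated and 8.30, 10.80 and 11.71 with arsenate. Both had their lowest signal on array 1, and untreated array 2 was also below its replicates.

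The 8 listed proteins bound to the mature ribosome had a median of -0.65 in wild type, with none above 0, and -0.03 in slt2, and none passed. ASC1, whose protein sits on the head of the small subunit, had 14.48, 14.39 and 14.48 untreated and 12.59, 14.39 and 14.45 with arsenate in wild type. Its signal on array 1 was far below that on the other arrays. In the general stress list, by comparison, the median arsenate effect was 1.83 in wild type, with all 29 above 0 and none passing over 12 arrays. It was 0.25 in slt2, where DDR48 and HOR7 rose by 1.24 and 0.56 (adjusted p = 0.00148 and 0.025) and CTT1, a catalase, fell by 0.57 (adjusted p = 0.0158) in limma on the slt2 arrays alone.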

How the data were processed

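Labelled RNA was hybridised to 12 Affymetrix yeast arrays. The deposited values are log2 signals per probe set, made by the authors with RMA in the Expression Console of Affymetrix, per the submitters' processing notes, with versions and settings not given in the sources used here. Whether all arrays were summarised in 1 run is also not given, and scanner files were not used here. Of 5814 probe sets 5498 have 1 gene symbol in the platform annotation, 316 have none, and all 5498 were matched by gene number to a table of reference genes. For 47 genes with several probe sets, that of highest mean was kept, which left 5449 genes. The members, gene lists and tests were chosen with earlier results of these data known.

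Group means were fitted with limma 3.58.1 in R 4.3.3 (lmFit, eBayes) to all genes on 12 arrays, and to the 6 slt2 arrays alone. P-values were adjusted by Benjamini-Hochberg over all genes at a threshold of 0.05. A minus B rows of the 50 pairs were fitted and adjusted in 1 table with all genes. The scripts were tested on simulated data with known changes. Each simulated gene had 1 spread for all arrays, so an array that stands apart was not covered. Genes were named by rule: those called, the 3 highest and 3 lowest in each comparison, the 3 widest pairs (1 of them is not reported here), fixed examples (RPL3, RPL10, RPS3, RPS6B and the stalk) and 6 regulators. Others, such as genes extreme on 1 array, were chosen after their values were seen. Alternatives were a replicate block, the groups compared only, centring, quantile normalization, a mean signal of at least 7, no shared-target probe sets, a weight per group, and arrays left out. Counts of groups that do not overlap under centring and quantile normalization were added after seeing the data. The number of arrays limits the precision. Figures were drawn with matplotlib 3.10.9.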

Additional observations from a re-analysis of the deposited data

How the results depend on the processing

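No ribosomal protein gene and no pair was called under any alternative tried except 1, which left out wild-type arsenate array 3: the arsenate effect in wild type then had 10 genes and 8 pairs called, and slt2 against wild type with arsenate 38 genes and 12 pairs. Over the arrays left out in turn these counts thus ran from 0 to 10, 0 to 8, 0 to 38 and 0 to 12, and the other counts stayed at 0. Of single genes, RPS28B (2.12) and RPL6B (2.34) passed in that same setting. The median of the 127 genes ran from -1.14 to -0.06 for the arsenate effect in wild type, from -0.02 to -0.01 in slt2, from 0.02 to 0.07 between untreated genotypes, from 0.07 to 1.19 with arsenate and from 0.0477 to 1.14 for the difference of effects. The large minus small subunit median ran from 0.0016 to 0.0731 in wild type and from -0.0715 to 0.0112 for the difference. With centred arrays the median was 0.10 between untreated genotypes and -0.058 for the effect of arsenate in slt2, and quantile normalization gave 0.0052 between untreated genotypes. Leaving out all 3 arrays that stood apart gave a median difference of effects of -0.0162, with the lone arsenate array assumed to vary like the other groups. The cause of these shifts was not tested, beyond the arrays each setting leaves out. With the replicate number as a block 0 ribosomal protein genes and 0 pairs were called, as without it, while the calls among all genes in the slt2 arrays alone went from 134 to 28. Samples of the same number had correlated deviations over 0.1 in 12 of 18 pairs of samples, not in all, and own numbers correlated best in 24 of 36 cases. This is a hint from the data that numbers may mark a shared batch. The labels name none, so the model without the block was kept. Of 355 alternatives to the counts and medians, 343 kept their value within the replicate spread or within 1.5 times the count. These 343 include the move of the wild-type median from -0.75 to -0.06 without wild-type arsenate array 1. They also include the move from 0.79 to 0.07 for slt2 against wild type with arsenate. The spread of treated wild type, a median standard deviation of 1.20, includes that array, so the tally does not show that these medians are stable. Fitting only the groups compared equals the 12-array model for the difference of effects and was not run there.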
